A study of Homo sapiens with 9 samples.

Results

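The replication-dependent histone cluster genes were taken as every row of the expression files whose symbol begins with HIST1H, HIST2H, HIST3H or HIST4H, with 1 pseudogene row (HIST1H2APS1) left out. That rule gave 72 genes of the 26830 in the files. The HIST1 cluster on chromosome 6 holds 55 of them, the HIST2 and HIST3 clusters on chromosome 1 hold 13 and 3, and HIST4 on chromosome 12 holds 1. By protein, 6 encode the linker histone H1, 17 H2A, 20 H2B, 14 H3 and 15 H4. HIST2H2BA and HIST2H2BC are in the rule by name but carry non-coding RefSeq identifiers. Poly(A)-selected RNA had been sequenced from human NB4 cells exposed for 48 h to FB23-2, to FB23 or to DMSO, the solvent, with 3 libraries in each of the 3 groups. NB4 is a line from an acute promyelocytic leukaemia, although the labels call its cell type acute monocytic leukemia. Both compounds carry the treatment label FTO inhibition, FTO being a demethylase that acts on N6-methyladenosine in RNA. Doses are not in the labels, so FB23-2 and FB23 were compared at a matched time and not at a known matched dose. The labels name no separate cultures, and p-values may therefore measure only technical spread between libraries.

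These genes supply the histones that package newly copied DNA. H2A, H2B, H3 and H4 form the core of the nucleosome, and H1 binds the linker DNA between nucleosomes. Most of the genes have no intron, and their transcripts end just after a short stem-loop in place of a poly(A) tail. The stem-loop binding protein SLBP and the U7 ribonucleoprotein, which contains LSM10 and LSM11, direct that cut, and the transcripts normally accumulate in S phase and are destroyed when DNA synthesis stops. Some cluster genes can also be cut at a polyadenylation site further downstream, which gives a tailed transcript, a form known from cells that leave the cell cycle and differentiate. Libraries made by poly(A) selection contain the tailed form and whatever tail-less RNA is carried through. A change in the amount of transcript and a change in the share that has a tail cannot be told apart in them, nor can a change in the share of cells in S phase and a change in histone RNA per cell.

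The stem-loop is shown because it marks where the tail-less form ends. In GENCODE 29 transcripts on GRCh38, 113 of 206694 (0.0547%) held a match to the histone stem-loop of 16 bases, and a match was found in transcripts of 33 of the 72 genes. Capitals mark the 2 arms that pair, and the lower-case bases between them form the loop. The genes named here are examples of each of the 6 forms found.
HIST2H2BE: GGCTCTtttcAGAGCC
HIST1H2BD: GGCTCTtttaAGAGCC
HIST1H4H: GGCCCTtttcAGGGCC
HIST2H4A: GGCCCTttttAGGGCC
HIST1H2AG: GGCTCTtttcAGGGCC
HIST1H3E: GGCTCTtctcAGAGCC
The first form was the most common, in 17 genes, and the others, in the order listed, were found in 5, 5, 3, 2 and 1. The arms beginning GGCCCT were found in 8 genes, all of class H4, and in all 8 H4 genes with a match, whereas none of the 25 matches in H2A, H2B and H3 genes had them. For HIST2H2BE it lies at chr1:149886188-149886203 on the minus strand, and the GENCODE transcript runs on for another 1729 bases, with the polyadenylation signal AATAAA among them. For HIST1H4H it lies at chr6:26285131-26285146 on the minus strand with 1655 bases after it. In all, 24 genes had an annotated transcript reaching at least 100 bases past the stem-loop (116 to 5804 bases), and AATAAA followed in 17 of these. In 9 genes the transcript with the match stopped closer to it. HIST1H2BD is among these 9, although it has 2 GENCODE transcripts and its gene extends to chr6:26171349, past its stem-loop at chr6:26158587-26158602. No match was found in the other 39, of which 32 have annotated models with coding sequence alone, which end before it. The models counted in the deposited files are mostly short, 5 outside the H1 class being longer than 600 bases, so reads beyond the stem-loop of the rest were not counted for them.

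Promoters are shown for 6 genes that carry most of the signal described here. Each run is 150 bases from RefSeq on GRCh38.p14, 5′ to 3′ on the gene's strand, and ends near an annotated start. Capitals mark the octamer ATTTGCAT (the site of the POU factor Oct-1, encoded by POU2F1), the TATA element TATAAA and the CCAAT box CCAAT (the site of the factor NF-Y), searched on both strands.
HIST1H2BK: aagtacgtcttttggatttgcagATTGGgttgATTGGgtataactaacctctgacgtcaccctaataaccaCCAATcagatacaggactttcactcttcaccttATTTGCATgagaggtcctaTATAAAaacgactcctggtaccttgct
HIST2H2BE: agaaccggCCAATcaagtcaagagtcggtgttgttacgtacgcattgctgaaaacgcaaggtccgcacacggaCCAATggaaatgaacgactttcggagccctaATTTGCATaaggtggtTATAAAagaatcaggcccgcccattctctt
HIST1H2BD: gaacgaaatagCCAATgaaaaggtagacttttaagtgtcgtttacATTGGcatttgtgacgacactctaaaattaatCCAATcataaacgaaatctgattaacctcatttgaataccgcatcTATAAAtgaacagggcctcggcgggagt
HIST2H2AA3: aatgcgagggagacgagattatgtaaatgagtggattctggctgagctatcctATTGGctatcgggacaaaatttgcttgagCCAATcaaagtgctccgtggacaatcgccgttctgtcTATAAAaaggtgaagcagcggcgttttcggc
HIST1H1C: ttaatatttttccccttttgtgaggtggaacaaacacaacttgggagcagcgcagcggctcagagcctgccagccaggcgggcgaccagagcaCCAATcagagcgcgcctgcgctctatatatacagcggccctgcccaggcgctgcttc
HIST1H3H: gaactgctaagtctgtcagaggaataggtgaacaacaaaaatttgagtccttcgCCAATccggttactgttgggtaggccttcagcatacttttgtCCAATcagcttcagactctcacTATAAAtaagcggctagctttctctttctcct
They lie at chr6:27146859-27147008 on the minus strand (HIST1H2BK), chr1:149886683-149886832 on the minus strand (HIST2H2BE), chr6:26157971-26158120 on the plus strand (HIST1H2BD), chr1:149842751-149842900 on the minus strand (HIST2H2AA3), chr6:26056471-26056620 on the minus strand (HIST1H1C) and chr6:27809901-27810050 on the plus strand (HIST1H3H). The 65 genes matched in the promoter table were searched over the 250 bases before the start. A gene was counted if any of its starts had the element, while the shares of all RefSeq starts count each start singly, so the 2 measures differ. The octamer was in 26 of them (40.0%), against 1.63% of all 35116 RefSeq starts, and it was concentrated in 11 of 16 H2A and 14 of 18 H2B promoters. Genes that start head to head lie 194 to 248 bases apart, so their searched stretches are largely the same DNA. An element there can count for both partners, and these counts are not of separate promoters. TATAAA was in 44 (67.7%, against 10.7% of all starts). CCAAT was in 55 (84.6%, against 32.0%), which included every H1, H2A, H2B and H3 promoter searched but 3 of 13 for H4. HIST1H2BK and HIST2H2BE carry all 3 elements in the stretch shown, and their log2 changes with FB23-2 were 0.78 and 4.88.

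Library totals ran from 12360291 to 38410750 expected counts, the estimate of reads per gene that RSEM makes. FB23 replicate 1 stood apart as the shallowest library and had a typical fragment of 399.0 bases, against 367.1 to 378.5 bases in the others. Of the 37 tested histone genes 28 had their lowest FB23 level in that library, as did 36.3% of all tested genes. With the effective lengths of RSEM as offsets, 37 histone genes were called higher with FB23-2 and 23 with FB23, each set against DMSO, and 35 with FB23-2 when set against FB23, where the values below are 37, 22 and 35. Values without that library are given where they change a call. The labelled cell type was not clear in the markers. Of 7 promyelocyte granule genes, MPO and CTSG had 0 counts in every library, and the list of 7 summed to 59.8 to 71.1 TPM (the length-corrected level given by RSEM) with DMSO. All 10 monocyte and granulocyte markers had a count in at least 1 library and summed to 54.2 to 55.2 TPM with DMSO. The 14 erythroid markers summed to 4442 to 4982 TPM with FB23-2, 32141 to 34476 with FB23 and 28292 to 29900 with DMSO. In CPM, counts relative to the scaled library total with no correction for length, the ranges were 1664 to 1720, 6788 to 8029 and 7146 to 7458. FB23 and DMSO thus overlapped in CPM and not in TPM. A total of 13 histone genes had no count in any library (up to 0.0156 CPM each), 59 had at least 1 count, and 37 passed the filter on low counts and were tested. The test was edgeR's quasi-likelihood test over 13365 genes in all 9 libraries, and a gene is called at a Benjamini-Hochberg adjusted p under 0.05.

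Summed over all 72 genes, histone signal was highest with FB23-2 and lowest with DMSO. The sum was 1666, 1698 and 1560 CPM in the FB23-2 libraries, 714, 782 and 822 in the FB23 libraries and 364, 357 and 370 in the DMSO libraries. No library of one group overlapped another. The mean was 1642 ± 72.3 CPM with FB23-2, 773 ± 54.6 with FB23 and 364 ± 6.85 with DMSO (SD, n = 3 each), which is 4.52 times the DMSO level for FB23-2 and 2.13 times for FB23. These sums were not tested.

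The 5 classes did not share this increase evenly. H4 genes summed to 23.4 ± 1.40 CPM with FB23-2, 2.91 ± 1.24 with FB23 and 1.28 ± 0.550 with DMSO, or 18.3-fold and 2.27-fold the DMSO level. H3 genes were at 64.6 ± 4.02, 10.7 ± 2.21 and 5.23 ± 1.30 CPM in the same order of groups, 12.3-fold and 2.04-fold. H2A genes were at 462 ± 38.0, 70.9 ± 11.7 and 42.9 ± 2.75 CPM, 10.8-fold and 1.65-fold. For these 3 core classes the FB23-2 level was thus more than 10 times that of DMSO, while the FB23 level was 1.65 to 2.27 times. H1 genes were at 481 ± 6.08 CPM with FB23-2, 125 ± 4.71 with FB23 and 56.7 ± 1.42 with DMSO, 8.47-fold and 2.20-fold. H2B was the exception in CPM, at 610 ± 31.8 with FB23-2, 564 ± 43.0 with FB23 and 257 ± 2.92 with DMSO. The 2 compounds gave 2.37-fold and 2.19-fold the DMSO level, and their library ranges overlapped. CPM gives more weight to long models, and HIST1H2BK is counted over 839 bases against an H2B median of 450.5, so this overlap is shown for CPM only. Of the 13 tested H2B genes 11 were called higher with FB23-2 than with FB23, 1 (HIST1H2BK) lower and 1 not called.

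**Figure D1:**
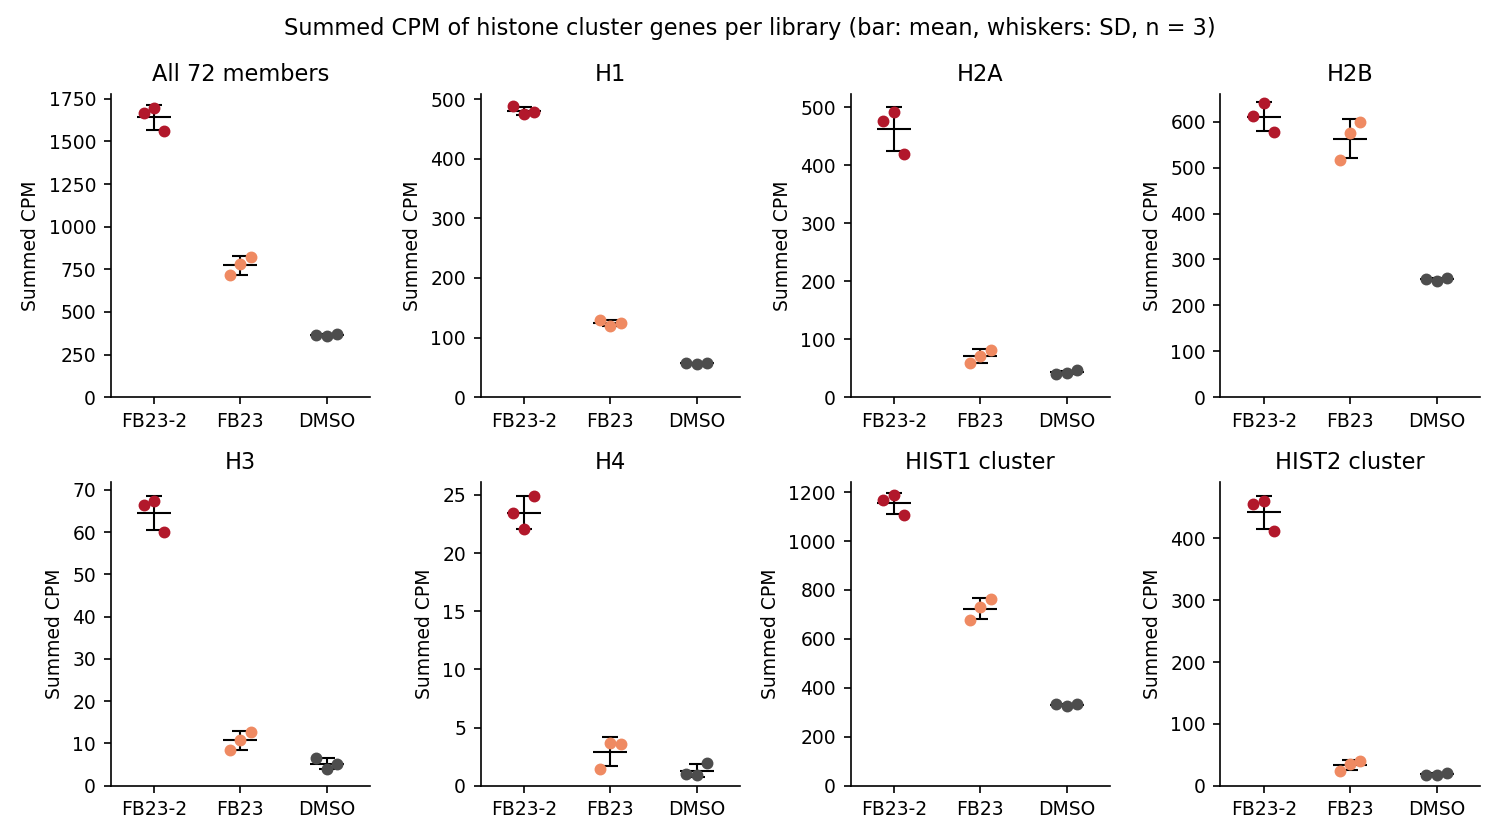
Summed CPM of all 72 histone cluster genes, of each class and of the HIST1 and HIST2 clusters (y axis, from 0), with 1 point per library for FB23-2, FB23 and DMSO; the bar is the mean and the whiskers the SD of 3 libraries. Every FB23-2 library is above every FB23 library except for H2B, where the means are 610 and 564 CPM.

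The clusters differed as well. HIST2 summed to 442 ± 26.2 CPM with FB23-2, 33.3 ± 8.35 with FB23 and 18.1 ± 1.76 with DMSO, 24.5-fold and 1.84-fold the DMSO level. Across its length of chr6:25726132-27893843 HIST1 summed to 1155 ± 42.8, 723 ± 42.8 and 332 ± 4.32 CPM, 3.48-fold and 2.18-fold. HIST3 summed to 44.2 ± 4.02, 16.5 ± 3.46 and 13.9 ± 1.58 CPM, 3.17-fold and 1.19-fold, and the FB23 and DMSO libraries overlapped there. HIST4H4, the lone gene of its cluster, had no count in any library. Within HIST1 the 15 tested genes at chr6:25726132-26285638 had a median log2 rise of 3.14 with FB23-2, the 4 at chr6:27125897-27147515, where HIST1H2BK lies, 2.33, and the 8 at chr6:27807444-27893843 2.55. The median of the 9 tested HIST2 genes was 4.82, with identical copies counted as separate genes. These copies share divided reads: HIST2H2AA3 and HIST2H2AA4 (4.96 each), HIST2H4A and HIST2H4B (4.82 each), and HIST2H3A and HIST2H3C (3.47 each). The others were HIST2H2BE (4.88), HIST2H2BF (2.51) and HIST2H2BC (0.91). The median is thus the value of HIST2H4A and HIST2H4B, which had 5, 2 and 8 counts in the DMSO libraries. HIST2 made up 26.9% of the histone signal with FB23-2, 4.27% with FB23 and 4.97% with DMSO.

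HIST1H2BK carried most of the histone reads in FB23 and DMSO libraries and set the result for the H2B class. Its share of the summed CPM was 24.6% to 25.5% in FB23-2 libraries, 68.1% to 68.6% in FB23 libraries and 65.6% to 66.4% in DMSO libraries. HIST1H1C, the most abundant H1 gene, took 27.7% to 30.3% with FB23-2, 14.7% to 17.8% with FB23 and 14.6% to 15.1% with DMSO. These are shares of reads, with no correction for length. Without these 2 genes the remaining sum was 755 ± 46.3 CPM with FB23-2, 123 ± 21.6 with FB23 and 69.3 ± 3.31 with DMSO, 10.9-fold and 1.77-fold. By these shares FB23 libraries lay closer to DMSO libraries than to FB23-2 libraries.

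**Figure D2:**
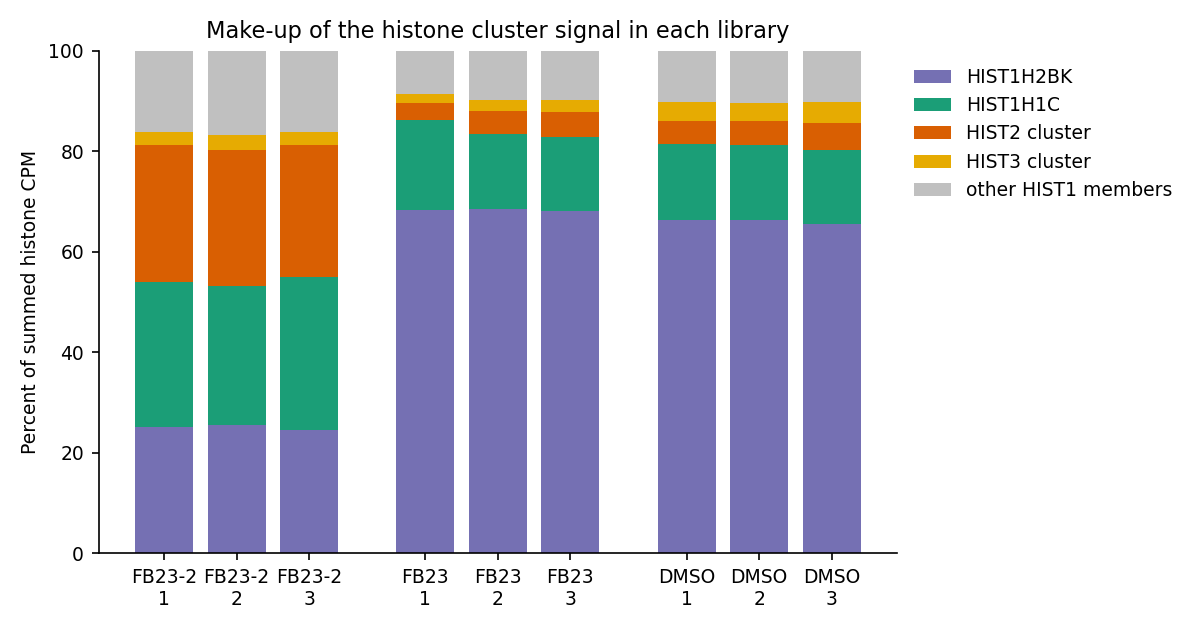
Percent of the summed histone CPM (y axis) taken in each of the 9 libraries by HIST1H2BK, HIST1H1C, the HIST2 and HIST3 clusters and the other HIST1 genes (stacked bars). HIST1H2BK takes about 25.1% in FB23-2 libraries against 68.4% in FB23 and 66.1% in DMSO libraries.

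Set against DMSO, FB23-2 raised every one of the 37 tested histone genes. None was lower by edgeR, by DESeq2 or by limma-voom, nor at an unadjusted p under 0.05 in edgeR. Over all tested genes 82.6% were called in either direction in this comparison, 41.3% of them higher and 41.3% lower as shares of all tested, so a call by itself was common. The median log2 fold change was 2.94 over the 37, with a range of 0.71 to 5.28, against a median of 0.01 over all tested genes. A log2 change of at least 1 was seen for 34 genes, of at least 2 for 27 and of at least 4 for 10, with identical copies counted as separate genes. FB23-2 and DMSO libraries did not overlap for 36 of them, against 42.1% of all tested genes that were higher without overlap. The filter could admit a gene by its FB23-2 counts alone, and such a gene had to differ: 11 of the 37, and 5 of the 10 at 4 or more, had under 10 counts in every DMSO library. At least 10 counts in each DMSO library were found for 20 genes, and all 20 were called higher. Their median was 2.70 (0.71 to 4.96), with 17 at 1 or more, 13 at 2 or more and 5 at 4 or more.

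Among linker histones, HIST1H1C responded most. Its level was 482, 471 and 473 CPM with FB23-2, 127, 117 and 121 with FB23, and 54.9, 52.7 and 54.2 with DMSO. The 3 groups were well apart, with a spread of a few percent within each. The log2 fold change was 3.14 ± 0.05 (SE) for FB23-2 against DMSO (edgeR adjusted p = 1.17e-18) and 1.17 ± 0.05 for FB23 against DMSO (1.68e-10). HIST1H1D rose by 1.94 ± 0.30 with FB23-2, and HIST1H1E by 0.71 ± 0.22 (adjusted p = 0.00657), the smallest rise of all tested members. HIST1H1B, another somatic H1, was untested with 24, 31 and 19 counts in all with FB23-2, FB23 and DMSO.

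The H2A genes with the largest response were HIST2H2AA3 and HIST2H2AA4, identical copies between which the counting divided reads equally, so that neither value belongs to 1 copy with certainty. HIST2H2AA3 was at 163, 160 and 139 CPM with FB23-2, 7.05, 10.3 and 11.5 with FB23, and 4.39, 4.99 and 5.43 with DMSO. The FB23-2 libraries lay more than 10 times above the others, and FB23 was above DMSO in every library. The rise against DMSO was 4.96 ± 0.12 on the log2 scale, or 31.2-fold, with FB23-2 (edgeR adjusted p = 1.85e-16) and 1.04 ± 0.15 with FB23 (0.000145). All 11 tested H2A genes rose with FB23-2, with a median of 2.66; HIST1H2AI was next at 3.41 ± 0.16. HIST3H2A, the called gene of HIST3, was at 43.1, 47.6 and 40.3 CPM with FB23-2, 12.8, 16.7 and 19.8 with FB23, and 13.4, 12.7 and 15.5 with DMSO. FB23-2 stood above both other groups, which overlapped each other. It rose by 1.66 ± 0.12 with FB23-2 (edgeR adjusted p = 4.16e-10).

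The weakest H2A call was that of HIST1H2AL, at 1.26 ± 0.46 with FB23-2 against DMSO (edgeR adjusted p = 0.0193), where the groups overlapped. That call was lost without DMSO replicate 1 (1.14, adjusted p = 0.0667), without DMSO replicate 3 (0.83, 0.105) or without FB23-2 replicate 2 (0.83, 0.134), and the value was 2.06 without DMSO replicate 2. HIST1H2AK rose by 1.56 ± 0.42, and by 2.21 without DMSO replicate 3.

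In the H2B class the response to FB23-2 ran from the smallest core histone change to the largest of any member. HIST2H2BE was at 75.6, 83.9 and 87.9 TPM with FB23-2, 3.95, 4.94 and 4.90 with FB23, and 1.80, 2.59 and 2.67 with DMSO. The 3 groups did not overlap. It rose by 4.88 ± 0.10 on the log2 scale (29.4-fold) with FB23-2 (edgeR adjusted p = 4.94e-17), and the FB23 rise had a 95% interval of 0.70 to 1.29 (8.77e-05). Its counted model is 2223 bases long and includes the extension past the stem-loop shown above. HIST1H2BD, also counted over a longer model of 813 bases, was at 208, 207 and 188 TPM with FB23-2, 24.1, 25.4 and 20.2 with FB23, and 9.30, 9.91 and 7.54 with DMSO, and rose by 4.26 ± 0.11 and 1.35 ± 0.14.

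HIST1H2BK behaved otherwise, as the most abundant H2B gene in every group. It was at 418, 433 and 383 CPM with FB23-2, 489, 537 and 560 with FB23, and 241, 237 and 243 with DMSO. Both compounds were above DMSO in every library, and FB23 was above FB23-2. The rise was 0.78 ± 0.05 with FB23-2 (edgeR adjusted p = 3.86e-10) and 1.14 ± 0.05 with FB23 (7.90e-10). Corrected for length, it averaged 1383 TPM with FB23-2, 1535 with FB23 and 687 with DMSO, where HIST1H1C had 2073, 462 and 201 TPM. The most abundant histone transcript was therefore HIST1H1C or the HIST2H2AA3 and HIST2H2AA4 pair (1468 TPM each, a split of shared reads) with FB23-2, and HIST1H2BK with FB23 and with DMSO.

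Low-count H2B genes had the largest fitted changes and the widest errors. HIST1H2BF had 39, 40 and 29 counts in FB23-2 libraries, 1, 9 and 2 in FB23 libraries and 1, 1 and 0 in DMSO libraries, with no overlap of FB23-2 and either other group. The ratio of FB23-2 to DMSO was 44.2 by counts, with an exact 95% counting interval of 11.9 to 369, and the fitted log2 change was 5.28 ± 0.62 (edgeR adjusted p = 3.67e-07). HIST1H2BH had 37, 24 and 34 counts with FB23-2, 2, 12 and 19 with FB23, and 1, 2 and 0 with DMSO. Its ratio of FB23-2 to DMSO was 25.9 (interval 8.60 to 128), and the fitted change was 4.58 ± 0.57, or 5.42 without DMSO replicate 2. Counting intervals cover counting error only, since reads are not independent molecules.

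The 5 tested H3 genes and the 5 tested H4 genes were called higher with FB23-2. No tested H4 gene, and 2 of the tested H3 genes (HIST1H3D and HIST1H3H), had at least 10 counts in each DMSO library, so the filter could have admitted the other 8 by their FB23-2 counts. HIST1H3H, the most abundant H3 gene, was at 30.7, 31.3 and 27.2 CPM with FB23-2, 2.54, 3.53 and 3.43 with FB23, and 1.89, 1.35 and 1.97 with DMSO. It rose by 4.10 ± 0.14 with FB23-2 (edgeR adjusted p = 1.11e-14) and by 0.93 ± 0.18 with FB23 (0.00141), with no overlap among groups. HIST1H3D was at 18.0, 16.9 and 16.9 CPM with FB23-2, 3.11, 4.77 and 5.56 with FB23, and 1.71, 1.52 and 1.36 with DMSO, a rise of 3.50 ± 0.17 and of 1.63 ± 0.20. Its counted model is 921 bases long, and its RefSeq start lies 223 bases from that of HIST1H2BF, as does the start of HIST1H2AD. Reads common to HIST1H3D and HIST1H2AD were not measured, so both values are uncertain. HIST2H4A and HIST2H4B are identical copies with reads divided equally, as are HIST2H3A and HIST2H3C, which rose by 3.47 ± 0.27 each.

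For H4, HIST2H4A had 8.73, 8.28 and 8.63 CPM with FB23-2, 0.410, 1.18 and 1.24 with FB23, and 0.305, 0.112 and 0.493 with DMSO. FB23-2 was far above the rest, and FB23 replicate 1 lay within the DMSO range. The rise was 4.82 ± 0.31 with FB23-2 (edgeR adjusted p = 1.28e-10) and 1.81 ± 0.42 with FB23 (0.00519). HIST1H4H had 3.78, 3.31 and 5.16 CPM with FB23-2, 0.328, 0.490 and 0.432 with FB23, and 0.0610, 0.168 and 0.185 with DMSO, a rise of 4.81 ± 0.37 with FB23-2. H4 models in the files are the shortest (median 370 bases), and their median effective length was 25.3 bases in FB23 replicate 1, against 31.3 to 36.8 elsewhere. Their TPM therefore magnifies few reads, and CPM is used for them.

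**Figure D3:**
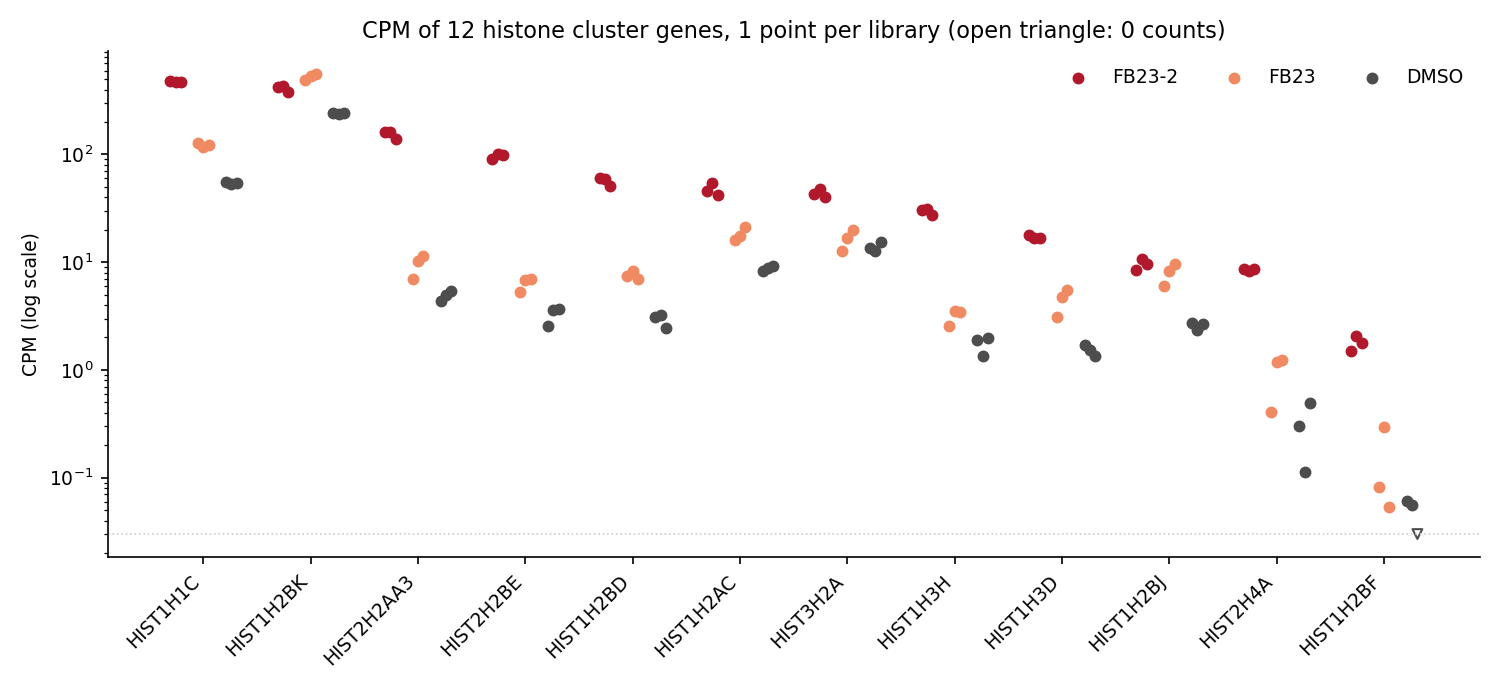
CPM (log axis) of 12 histone cluster genes, 1 point per library, in FB23-2, FB23 and DMSO order within each gene; an open triangle on the dotted line is a library with 0 counts. FB23-2 points are highest for all 12 except HIST1H2BK, where FB23 is highest, and HIST1H2BJ, where FB23-2 and FB23 overlap.

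With FB23 the same direction was seen at a smaller size. Of the 37 tested genes 22 were called higher, 0 lower and 15 not called, where 23.5% of all tested genes were called and 12.3% were called higher. The median log2 fold change was 1.04, against 0.00 over all tested genes, and 35 of the 37 values were above 0. At an unadjusted p under 0.05 in edgeR 29 were higher and 0 lower, and DESeq2 and limma-voom called 20 and 21 higher and 0 lower. FB23 and DMSO libraries did not overlap, with FB23 higher, for 21 genes, and 19.1% of all tested genes were higher in that way. Of the 20 genes with at least 10 counts in each DMSO library 15 were called higher. By class, 2 of 3 tested H1 genes, 6 of 11 H2A, 9 of 13 H2B, 2 of 5 H3 and 3 of 5 H4 were called. FB23 and FB23-2 were set against the same 3 DMSO libraries, so the 2 sets of values are not independent.

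The largest called rises with FB23 were those of HIST1H2BH (2.65 ± 0.72, edgeR adjusted p = 0.0138), HIST2H4A and HIST2H4B (1.81 each), HIST1H2BJ and HIST1H3D. For HIST1H2BH the ratio by counts was 6.94 (exact 95% counting interval 2.18 to 35.4). Its call was lost without DMSO replicate 1 (2.67, adjusted p = 0.0523), DMSO replicate 3 (2.14, 0.0628) or FB23 replicate 3 (2.31, 0.0539), and the value was 3.49 without DMSO replicate 2. HIST1H2BJ was at 8.42, 10.8 and 9.60 CPM with FB23-2, 6.06, 8.26 and 9.58 with FB23, and 2.74, 2.36 and 2.65 with DMSO. Here both compounds raised the gene to overlapping levels, by 1.89 ± 0.17 with FB23-2 (edgeR adjusted p = 1.75e-08) and by 1.68 ± 0.17 with FB23 (5.78e-06).

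Calls that rested on single libraries were found mostly among genes with few counts in the FB23 comparison. Of the 22 calls, 16 held when any 1 of the 9 libraries was left out. HIST1H4H (1.61, edgeR adjusted p = 0.0345) lost its call without DMSO replicate 1 (0.144), 2 (0.0758) or 3 (0.0606) and without FB23 replicate 2 (0.101) or 3 (0.0630), and also by DESeq2 (0.0548) and limma-voom (0.0536). HIST1H1D (1.02, 0.0287) lost it without DMSO replicate 1 (0.0719) or 3 (0.129) or FB23 replicate 1 (0.0518) or 2 (0.107), and by DESeq2 (0.0636). HIST1H2BN (1.60, 0.0201) lost it without DMSO replicate 2 (0.111) or FB23 replicate 2 (0.0580) or 3 (0.0623). HIST1H2BL (0.87) lost it without DMSO replicate 3 (0.0609) or FB23 replicate 2 (0.0722), and HIST1H2BC (0.68) without DMSO replicate 2 (0.0539). In the other direction, HIST3H2A (0.29 ± 0.12, 0.101) was called without FB23 replicate 1 (0.40, 0.00944), and also with no filter on low counts (0.33, 0.00786), with the length trend removed (0.26, 0.0353) and with effective lengths as offsets (0.29, 0.0487). HIST1H2BO (0.95, 0.0674) was called without the same library (1.15, 0.0139) and with no filter (0.99, 0.0230), and HIST1H3B (1.73, 0.0960) without FB23 replicate 2 (2.20, 0.0285).

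The direct comparison of FB23-2 with FB23 gave 35 of the 37 genes higher with FB23-2, 1 lower and 1 not called, where 81.5% of all tested genes were called, 40.4% higher and 41.1% lower. The median difference was 1.93 on the log2 scale, against 0.00 over all tested genes. A gene admitted by its FB23-2 counts alone had to differ here too. Of the 20 genes with at least 10 counts in each DMSO library 18 were called higher and 1 lower, with a median of 1.72 (-0.36 to 3.92). The 35 higher genes did not overlap between the groups, against 40.4% of all tested genes, and 1 gene was lower without overlap, against 40.8% of all tested genes. HIST2H2AA3, with HIST2H2AA4, led at 3.92 ± 0.10, followed by HIST2H2BE at 3.88 ± 0.09, HIST1H2BF at 3.50 ± 0.43 and HIST1H4H at 3.20 ± 0.27 (edgeR adjusted p of 5.10e-09 or less for each but HIST1H2BF, which had 6.77e-07). HIST1H2BF moved to 4.72 without FB23 replicate 2 and 2.92 without FB23 replicate 3.

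HIST1H2BK was the member that was lower with FB23-2 than with FB23, by a log2 difference of -0.36 ± 0.05 (edgeR adjusted p = 7.12e-06), and all 3 FB23-2 libraries lay below all 3 FB23 libraries. That call ended when a trend on gene length was removed from each library (-0.02, adjusted p = 0.714). HIST1H2BJ was not called, at 0.21 ± 0.14 (adjusted p = 0.167, 95% interval -0.08 to 0.50). It was called as higher with FB23-2 without FB23 replicate 3 (0.37, 0.0253), with the length trend removed (0.58, 0.000127), under library totals (0.34, 0.0301) and under upper-quartile factors (0.38, 0.0196). HIST1H2AL (0.98, 0.0353) lost its call without FB23 replicate 1 (0.0532), 2 (0.0544) or 3 (0.0935) or FB23-2 replicate 2 (0.262), and by DESeq2 (0.0552) and limma-voom (0.0545). HIST2H2BC (0.52, 0.0228) lost it without FB23 replicate 1 (0.0636) or 2 (0.0738) or FB23-2 replicate 2 (0.0686).

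**Figure D4:**
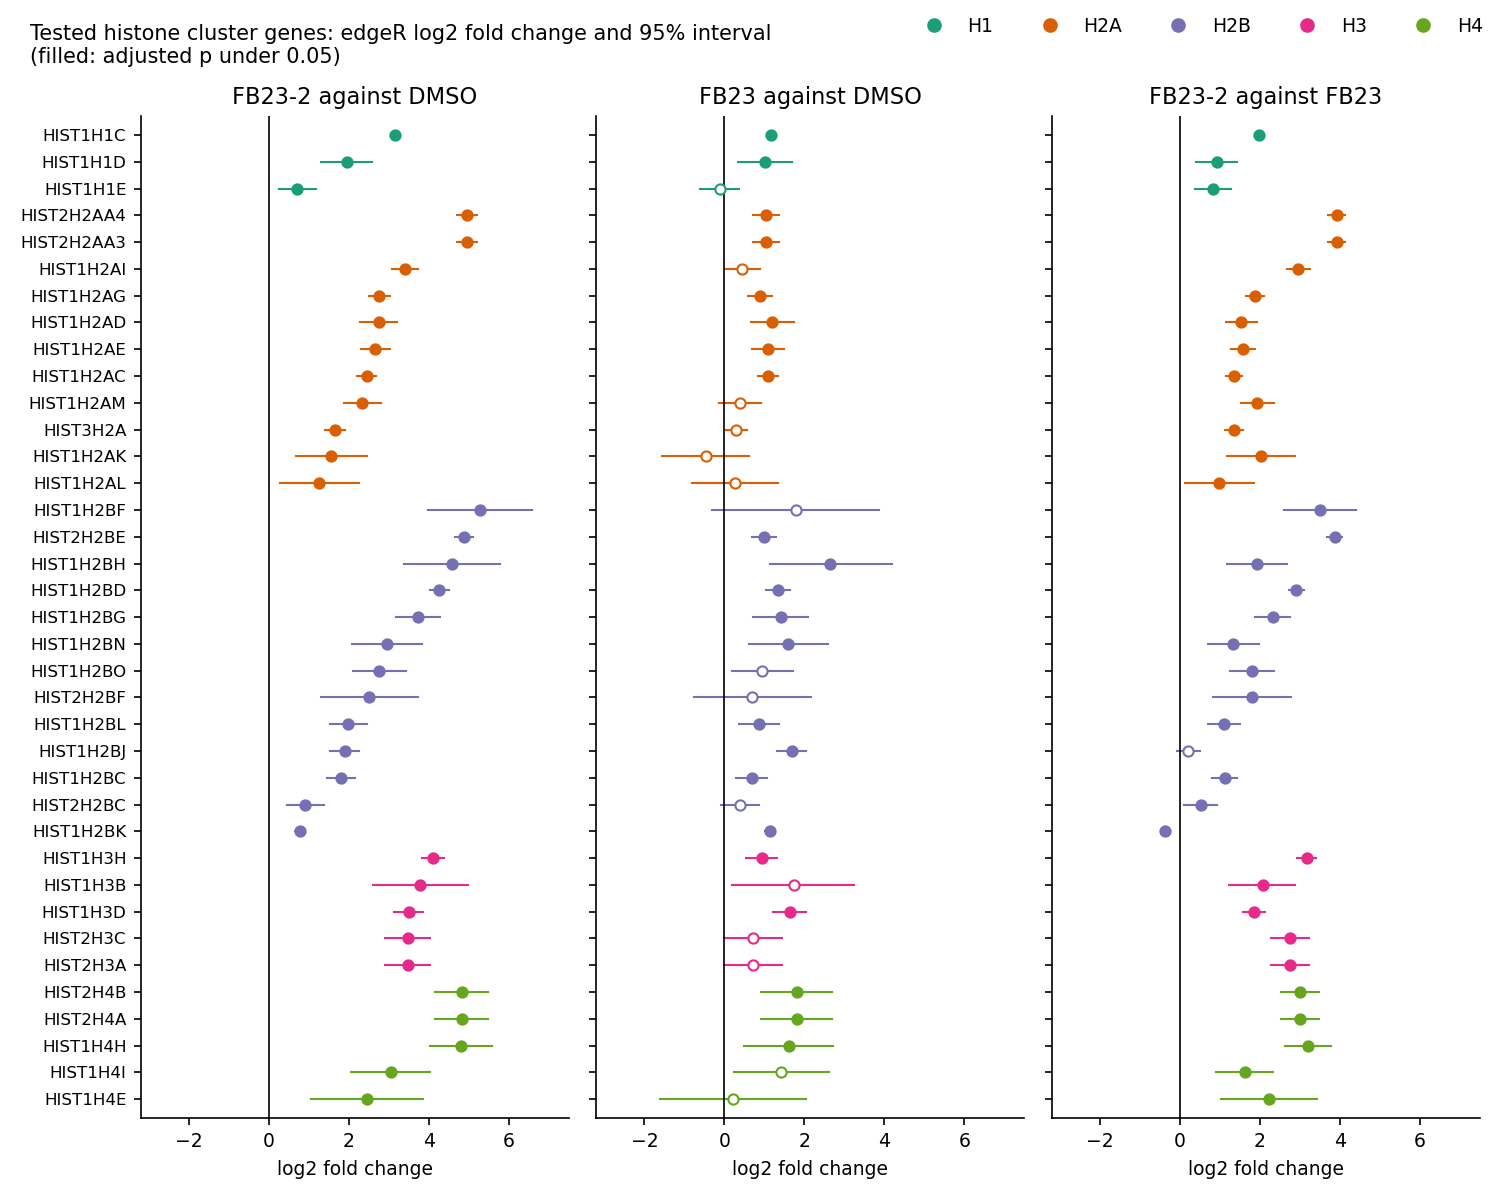
edgeR log2 fold changes (x axis) with 95% intervals for the 37 tested histone cluster genes, coloured by class, in 3 panels: FB23-2 over DMSO, FB23 over DMSO and FB23-2 over FB23. Filled points have an adjusted p under 0.05. All points of the first panel are filled and right of 0, the second holds 22 filled points, and in the third HIST1H2BK alone is filled left of 0.

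H2A and H2B genes often start back to back from a shared stretch of promoter, and such partners did not always respond alike. Pairs were sought only among the 65 genes matched in the promoter table, and 12 pairs started 194 to 248 bases apart. Both partners were tested in 7 H2A and H2B pairs and in the pair of HIST1H3D with HIST1H2BF. HIST1H2BK (minus strand) and HIST1H2AH (plus strand) are neighbours that point away from each other and are not among the 12. HIST1H2BK had 25498, 43171 and 12115 counts with FB23-2, FB23 and DMSO, and HIST1H2AH had 16, 36 and 27. HIST1H2AG and HIST1H2BJ start 248 bases apart. With FB23-2 HIST1H2AG rose by 2.76 (95% interval 2.50 to 3.03) and HIST1H2BJ by 1.89 (1.52 to 2.26), whereas with FB23 HIST1H2AG rose by 0.88 (0.58 to 1.18) and HIST1H2BJ by 1.68 (1.31 to 2.05). The order of the partners was therefore opposite for the 2 compounds, with intervals that did not overlap in either case. HIST1H2AI rose by 3.41 (3.08 to 3.74) with FB23-2 and HIST1H2BL by 1.98 (1.52 to 2.44). HIST1H2AD and HIST1H2BF differed the other way, at 2.74 (2.27 to 3.21) and 5.28 (3.98 to 6.58), with the limit on HIST1H2AD given above and 2 counts in all for HIST1H2BF with DMSO. In all, the partners' intervals did not overlap for 5 of the 7 pairs with FB23-2 and for 2 of 7 with FB23. The intervals of HIST1H2AM and HIST1H2BO overlapped with both compounds. Differences between partners were not tested as such.

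**Figure D5:**
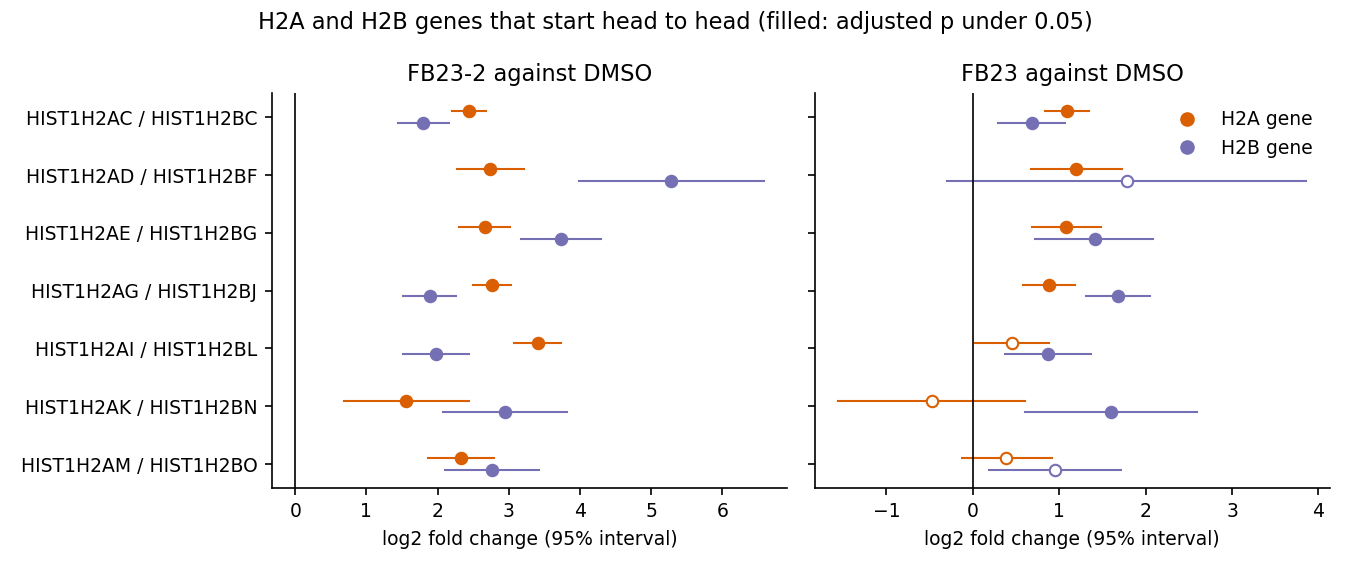
log2 fold changes against DMSO (x axis) with 95% intervals for 7 pairs of H2A and H2B genes that start head to head, with FB23-2 on the left and FB23 on the right; filled points have an adjusted p under 0.05. The H2A gene is the higher of the pair for HIST1H2AG and HIST1H2AI with FB23-2, and the H2B gene is the higher for both pairs with FB23.

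Among the 12 pairs, the sharpest contrast was between HIST2H2BE and its partner HIST2H2AC, whose starts are 236 bases apart. HIST2H2BE had 5931 counts with FB23-2, 531 with FB23 and 166 with DMSO, while HIST2H2AC had 1, 22 and 5 and was not tested. Its counted model is 437 bases long. In HIST3, HIST3H2A had 2699, 1401 and 698 counts, and HIST3H2BB, with a start 230 bases away, had 32, 9 and 3, a ratio of FB23-2 to DMSO of 8.72 (exact 95% counting interval 2.73 to 44.5). Its FB23-2 libraries had 0.309, 0.932 and 0.365 CPM, its FB23 libraries 0.164, 0.163 and 0.0540, and its DMSO libraries 0, 0 and 0.185. The FB23-2 libraries lay above all others, and the gene was below the filter and was not tested.

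The other untested members had little signal in any group. Of the 35, 13 had no count at all and 22 had some. Mean CPM of those 22 was higher with FB23-2 than with DMSO for 16 and lower for 6, and with FB23 it was higher for 11 and lower for 8. HIST1H3E had 12 counts with FB23-2 and none with FB23 or DMSO, at least 3.27-fold higher than DMSO when 3 counts over the DMSO group are taken as the floor. HIST1H2AH went against the tested members, with 16 counts with FB23-2, 36 with FB23 and 27 with DMSO. HIST1H4C, a major H4 gene of cycling cells, had 11, 9 and 3 counts.

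Members known for tailed transcripts held most of the summed histone CPM in every group. A list of 8 such genes (HIST1H1C, HIST1H2AC, HIST1H2BC, HIST1H2BD, HIST1H2BJ, HIST1H2BK, HIST2H2BE and HIST4H4) summed to 1067 to 1138 CPM with FB23-2, 653 to 731 with FB23 and 311 to 318 with DMSO. CPM is not corrected for length, and some listed genes have long counted models. By TPM the list did not hold most of the signal with FB23-2. It summed to 4438 to 4598 TPM there, while the unlisted HIST2H2AA3 and HIST2H2AA4 averaged 1468 each, HIST3H2A 533 and HIST1H3H 433. All 7 tested genes of the list were called higher with both compounds, with a median of 2.44 for FB23-2 and 1.14 for FB23. HIST1H2AC, whose GENCODE transcript runs 1128 bases past its stem-loop, was at 45.9, 54.3 and 42.4 CPM with FB23-2, 16.1, 17.5 and 21.2 with FB23, and 8.29, 8.87 and 9.13 with DMSO, a rise of 2.44 ± 0.11 and 1.09 ± 0.12 (edgeR adjusted p = 1.09e-12 and 1.12e-05). By annotation, the 19 tested genes with a transcript reaching past the stem-loop had a median rise of 3.47 with FB23-2. The median was 3.83 for the 6 whose transcript with the match ended near it and 2.13 for the 12 with no match. The ranges were 0.91 to 5.28, 1.98 to 4.96 and 0.71 to 3.79, so the 3 sets overlapped, and no order among them was tested. These sets do not separate tailed from tail-less transcripts. The set of 6 holds the listed HIST1H2BD, which is counted over a model of 813 bases. The set of 12 holds the listed HIST1H1C, HIST1H2BJ and HIST1H2BK. Identical copies were counted as separate genes here, and the set of 6 holds both HIST2H2AA3 and HIST2H2AA4 at 4.96.

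RNAs that normally have no poly(A) tail were followed as a view on carry-over of tail-less RNA. Of 33 such genes in the files 20 had no count in any library, and the rest summed to 5.52 to 7.40 CPM with FB23-2, 3.44 to 6.07 with FB23 and 2.41 to 2.80 with DMSO. This small sum was higher with both compounds in every library, as was the histone sum. Among the 3 that were tested, RN7SK, a regulator of transcription elongation, rose by 2.39 ± 0.47 with FB23-2 (edgeR adjusted p = 0.000158) and was not called with FB23, at -0.41 ± 0.64. RN7SL2, part of the signal recognition particle, rose by 1.42 ± 0.29 with FB23-2 and 1.75 ± 0.28 with FB23. RN7SL1, another copy, was not called with either compound, at 0.54 ± 0.39 (adjusted p = 0.207) and 0.15 ± 0.40 (0.833). The part of tail-less RNA in the histone values was not tested.

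Genes listed for 3′ end processing of histone RNA mostly moved the other way with FB23-2. The list was not limited to factors specific to the stem-loop end. It includes FIP1L1 (log2 change -1.24) and WDR33 (-0.71), which serve polyadenylation, and MIIP (-0.59), whose place on it is uncertain. Of 23 tested genes of 3′ end processing 21 were called lower and 2 higher with FB23-2, with a median of -0.89, where 41.3% of all tested genes were called in each direction. With FB23 3 were called lower, a share near the 11.2% of all tested genes, and 0 higher, with a median of -0.07 (at an unadjusted p under 0.05 in edgeR 8 and 0, by DESeq2 4 and 0). SLBP had 127, 129 and 128 CPM with FB23-2, 201, 190 and 191 with FB23, and 201, 217 and 205 with DMSO. It was lower with FB23-2 by a log2 change of -0.70 ± 0.04 (edgeR adjusted p = 9.63e-11), with FB23-2 below every other library, and was not called with FB23 (-0.10 ± 0.04, 0.106), except with the length trend removed (-0.12, 0.0458). LSM11, a U7-specific protein, averaged 21.7 ± 0.761 CPM with FB23-2, 28.3 ± 1.01 with FB23 and 33.2 ± 0.526 with DMSO (SD, n = 3 each), changes of -0.61 ± 0.06 and -0.23 ± 0.06 (edgeR adjusted p = 9.04e-08 and 0.0136). The FB23 call of LSM11 was lost without DMSO replicate 2 (-0.21, 0.0556) and with no filter on low counts (-0.19, 0.0666). SNRPF and SNRPE, Sm proteins of the U7 and spliceosomal particles, fell most with FB23-2, by 1.78 and 1.75 on the log2 scale.

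The 2 genes of that list that rose with FB23-2 belong to the histone locus body, the nuclear site of histone gene transcription and processing. NPAT, its scaffold and coactivator, averaged 70.2 ± 1.67 CPM with FB23-2, 58.0 ± 5.63 with FB23 and 55.4 ± 0.452 with DMSO, and rose by 0.34 ± 0.06 with FB23-2 (edgeR adjusted p = 6.57e-05). CASP8AP2 (FLASH), a partner of the U7 particle, rose by 0.54 ± 0.06 (2.01e-07). With FB23 neither was called, at 0.05 ± 0.06 and 0.10 ± 0.06.

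Other parts of the pathway held genes called in both directions with FB23-2, as did all tested genes (41.3% each way). Of 14 genes for transcription of histone genes 4 rose and 10 fell (median -0.59). E2F1, an activator of S phase genes, averaged 166 ± 9.96 CPM with FB23-2, 84.0 ± 2.10 with FB23 and 82.8 ± 2.68 with DMSO (SD, n = 3 each) and rose with FB23-2 (edgeR adjusted p = 4.09e-12). POU2F1, the octamer factor, fell by 1.16 on the log2 scale. Of 21 genes for histone mRNA decay 6 rose and 14 fell (median -0.67). XRN1, the 5′ to 3′ exonuclease, rose by 0.84 ± 0.07, ZCCHC6, a terminal uridylyltransferase, by 0.77 ± 0.07, and EXOSC5, an exosome subunit, fell by 2.62 on the log2 scale. With FB23 the transcription list had 2 higher and 6 lower and the decay list 0 higher and 3 lower (1 and 5 at an unadjusted p under 0.05 in edgeR, 0 and 3 by DESeq2), with medians of -0.14 and -0.01, where 12.3% of all tested genes were higher and 11.2% lower.

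DNA replication genes, which like the histone genes are used in S phase, were called in both directions. Of 38 tested, 10 were called higher and 23 lower with FB23-2 (median -0.30), against 41.3% of all tested genes each way. With FB23 7 were higher and 6 lower (median -0.01), near the 12.3% and 11.2% of all tested genes. TK1, thymidine kinase, rose by 1.09 and CDT1, a licensing factor, by 0.79 with FB23-2. MCM5, a subunit of the replicative helicase, fell by 1.34 and POLE2, a polymerase subunit, fell by 1.33 on the log2 scale. Summed over the list, levels were 7161 to 7480 CPM with FB23-2, 8376 to 8488 with FB23 and 8530 to 8571 with DMSO. In TPM the sums were 4999 to 5129, 4964 to 5233 and 5023 to 5111, so the groups overlapped and the lower FB23-2 level was seen in CPM only. The histone sum in CPM was 4.52 times the DMSO level with FB23-2. The part of S phase in the histone values was not tested.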

How the data were processed

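The deposited files hold 1 RSEM gene table per library. Expected counts are the authors' RSEM estimates of reads per gene, per the file headers. TPM values were scaled by RSEM for effective length and library total in the deposited files. FPKM values are also deposited and were not used here. Gene length and effective length are given in bases in the deposited files. RSEM 1.2.31 and GRCh38 are named, per the submitters' processing notes. No aligner, annotation release or strand setting is stated in them.

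The tests used rounded expected counts (edgeR 4.0.16, R 4.3.3). Genes passed filterByExpr (minimum count 10, minimum total 15), libraries were scaled by TMM, and all 9 libraries entered 1 quasi-likelihood fit with a term for each group. Tests were two-sided, with Benjamini-Hochberg adjustment over 13365 genes, and the common biological coefficient of variation was 5.12%. Errors of log2 changes are SE, and intervals are 95%. CPM uses TMM scaling. Upper limits for genes at 0 counts, and the floor for a group at 0, use 3 counts.

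The genes were named by a rule: in each comparison up to 5 called members at each end of the fold changes, the most abundant member of each class by mean TPM, called members of HIST3 and HIST4, and SLBP, NPAT and LSM11. Other members are named with a fold change, and HIST1H2BD, HIST1H2AC, HIST1H2AL, HIST1H2AK, HIST2H2AC, HIST1H3E, HIST1H2AH, HIST1H4C and the head-to-head pairs were chosen after their values were seen. The members and gene lists were chosen with earlier results of these data known. Positions and stem-loops come from GENCODE 29 and promoters from RefSeq GRCh38.p14. Alternatives used DESeq2 1.42.0 and limma 3.58.1, other scalings and filters, a length trend, the replicate block, and each library left out. No pair of libraries was identical.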

Additional observations from a re-analysis of the deposited data

How the results depend on the processing

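In the count-based alternatives the numbers of histone genes called higher stayed within 1.5 times the reported ones: 33 to 42 for FB23-2 against DMSO, 17 to 24 for FB23 against DMSO and 31 to 39 for FB23-2 against FB23. The 17 came from fitting the 6 libraries alone. Leaving out 1 library gave 36 to 39, 18 to 23 and 33 to 37. In these fits, histone genes lower with FB23-2 than with FB23 numbered 1, or 2 with no filter on low counts and 0 with the length trend removed. Upper-quartile factors and library totals shifted the median of all genes by 0.17 and 0.15 for FB23-2 against DMSO and by 0.17 and 0.13 for FB23-2 against FB23. Under them the log2 ratio of the histone sum was 2.35 and 2.32 against DMSO (2.17 with TMM), and 1.25 and 1.21 against FB23 (1.09 with TMM). Leaving out 1 library gave 2.15 to 2.21 and 1.04 to 1.14, and 1.05 to 1.14 for FB23 against DMSO. Over all genes, those called lower with FB23 numbered 963 to 1584 when 1 library was left out (1497 with all), 963 without DMSO replicate 1, 994 without DMSO replicate 2 and 993 without FB23 replicate 2.

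For the 17 genes that the naming rule chose, 1060 refits left 1037 calls as they were, ended 14, added 9 and reversed none. Over all 37 tested histone genes, 2294 refits ended 35 calls, added 11 and reversed none. On log2(TPM + 1) with limma, 46 histone genes were higher and 2 lower with FB23-2 than with DMSO, 26 and 1 with FB23 than with DMSO, and 42 and 3 with FB23-2 than with FB23. A pseudocount of 0.1 gave 43 and 2, 26 and 1, and 40 and 3, and no filter gave 44 and 2, 21 and 1, and 42 and 2. The replicate block gave 37, 21 and 35 genes higher, and the call it ended was that of HIST1H4H with FB23 (1.56, edgeR adjusted p = 0.0522). Replicate numbers were not taken as pairs, since the correlations of same-numbered libraries ran from -0.29 to 0.198. With effective lengths as offsets and with identical copies summed, both chosen after seeing the data, 37, 23 and 35 and 34, 20 and 32 were higher. Limits are the low counts of many members, identical copies, unknown doses and 3 libraries a group.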

Other observations

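Histone genes outside the clusters, many of which are not tied to S phase and have transcripts with a poly(A) tail, were mostly lower with FB23-2. Of 8 tested, 1 was called higher and 6 lower with FB23-2 (median log2 change -0.63), where 41.3% of all tested genes were called in each direction. With FB23, where 12.3% of all tested genes were higher and 11.2% lower, 2 were higher and 0 lower by edgeR (2 and 0 at an unadjusted p under 0.05 in edgeR and by DESeq2). H2AFZ, the variant H2A.Z, had 243, 237 and 224 CPM with FB23-2, 579, 610 and 623 with FB23, and 583, 580 and 569 with DMSO, and CENPA, the centromeric H3, averaged 14.5 ± 1.14, 35.4 ± 1.93 and 36.8 ± 2.02 CPM (SD, n = 3 each). With FB23-2 they fell by 1.30 and 1.35 on the log2 scale (edgeR adjusted p = 2.12e-14 and 2.15e-11). The gene that rose was H2AFX, which encodes the H2A variant phosphorylated at DNA breaks and which also has a stem-loop form, at 488 ± 37.8 CPM with FB23-2, 447 ± 48.3 with FB23 and 388 ± 15.8 with DMSO. Its log2 change was 0.33 ± 0.07 with FB23-2 and 0.20 ± 0.07 with FB23 (edgeR adjusted p = 0.000234 and 0.0379).

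Of 18 tested histone chaperones, the proteins that carry histones to chromatin, 4 were higher and 12 lower with FB23-2 (median -0.41), and 3 higher and 5 lower with FB23 (median -0.05), beside the same shares of all tested genes. ASF1B, a chaperone of H3 and H4 in S phase, averaged 170 ± 9.31 CPM with FB23-2, 127 ± 6.42 with FB23 and 97.9 ± 2.13 with DMSO, rising by 0.80 ± 0.05 and 0.38 ± 0.05. IPO4, an importer of H3 and H4, averaged 30.6 ± 2.88, 203 ± 6.25 and 234 ± 3.33 CPM, and fell by 2.93 on the log2 scale with FB23-2 (edgeR adjusted p = 2.77e-17). The non-histone genes beside the clusters were mixed: of 23 tested, 12 were higher and 6 lower with FB23-2 (median 0.26), against 41.3% of all tested genes each way, led by MTMR11, a gene next to HIST2, at 2.60 ± 0.32, with ABT1, a gene beside HIST1, lower by a log2 change of -1.26. With FB23 0 were higher and 2 lower by edgeR (1 and 3 at an unadjusted p under 0.05, 0 and 3 by DESeq2).

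Other marker lists moved with FB23-2 as well, and their part in the histone values was not tested. All 13 tested erythroid markers were lower with FB23-2 (median -2.43), HBZ, an embryonic globin, by a log2 change of -5.16. Of 10 monocyte and granulocyte markers 5 were tested, with 3 higher and 2 lower. They summed to 91.5 to 95.4 CPM with FB23-2, 30.6 to 34.4 with FB23 and 42.7 to 43.7 with DMSO. Of 7 promyelocyte granule genes 2 were tested and both were lower with FB23-2, the list summing to 29.7 to 34.0 TPM with FB23-2, 49.4 to 68.4 with FB23 and 59.8 to 71.1 with DMSO.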
